A study of Mus musculus with 40 samples.

Results

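The 7 genes described here, Chrna4, Adgrf1, Slc34a2, Slc13a2, Clic3, Cyp2g1 and Nat8f7, are little studied in liver and were picked because their read counts showed some of the largest falls on a high-fat diet (HFD) among genes outside the well-known metabolic pathways. They are 7 of the 57186 gene identifiers counted, and all 7 were among the 15627 genes that passed the filter on low counts. The choice had no numeric cut-off. Because it used the difference between diets, that difference is described below without a test, while sex and genotype, averaged over both diets with equal weight, were tested.

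Poly(A) RNA was sequenced in 40 libraries of mouse liver with the strain label C57BL/6NCrl. The study was of animals with (WT) and without (KO) functional NNT, the nicotinamide nucleotide transhydrogenase of the mitochondrial inner membrane. WT and KO females and males stayed on chow or were moved at 11 to 13 weeks of age to a diet with 45 kcal% fat for 11 weeks, and livers were taken at 22 to 24 weeks of age, 2 to 4.5 h after lights on. Each of the 8 combinations of genotype, sex and diet held 5 libraries, and the labels do not say how the KO allele was made. The diet comes from the sample titles, because a separate treatment label gave the other diet for 20 of the 40 libraries.

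Library totals ran from 15973400 to 28159400 counts. Xist and Ddx3y matched the sex label in all 40 libraries, and 6 hepatocyte markers summed to at least 70969 CPM (counts per 1000000 counts of the scaled library total) in every library. Nnt had 13 to 54 reads in every library, with 1.36 ± 0.35 CPM in WT and 1.32 ± 0.39 CPM in KO (SD, n = 20 each), so the counts give no check of the genotype labels. Transcripts of other organs appeared in a few libraries. Kidney markers (6 genes, Kap and Slc34a1 among them) summed to 17.8 CPM in WT male chow replicate 5, to 2.77 CPM in KO male chow replicate 5, to 1.92 CPM in WT male chow replicate 4 and to 1.89 CPM in WT male HFD replicate 5, and to at most 0.540 CPM elsewhere. Pancreas markers summed to 29.4 CPM in KO female HFD replicate 2, 25.7 CPM in WT male HFD replicate 2 and 6.68 CPM in WT female chow replicate 3, and to at most 0.254 CPM elsewhere. In whole-liver RNA, fewer cells of a type and less RNA per cell cannot be told apart.

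Most of these genes are better known from other organs. Nicotinic acetylcholine receptors, to which Chrna4 contributes a subunit, are ligand-gated cation channels, those of neurons among them. Adgrf1 is an adhesion G protein-coupled receptor, a class with a long extracellular part that is cleaved near the membrane. Slc34a2 and Slc13a2 carry phosphate and citric acid cycle intermediates into epithelial cells with sodium, Clic3 belongs to a family of chloride channel-related proteins with a glutathione transferase-like fold, and Cyp2g1 and Nat8f7 encode a cytochrome P450 and a member of a family of N-acetyltransferases.

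The promoters of 3 members are shown, those of Chrna4 and Slc34a2, rich in G and C, and that of Slc13a2, less rich in them. Each sequence is from RefSeq (GRCm38.p6) and covers 250 bases before to 50 bases after the annotated start, printed 5′ to 3′ along the gene's own strand. Of the 6 members with an entry, 5 are described. Capitals mark exact matches, on either strand, to the letters named after them.
Chrna4, chr2:181039128-181039427, minus strand: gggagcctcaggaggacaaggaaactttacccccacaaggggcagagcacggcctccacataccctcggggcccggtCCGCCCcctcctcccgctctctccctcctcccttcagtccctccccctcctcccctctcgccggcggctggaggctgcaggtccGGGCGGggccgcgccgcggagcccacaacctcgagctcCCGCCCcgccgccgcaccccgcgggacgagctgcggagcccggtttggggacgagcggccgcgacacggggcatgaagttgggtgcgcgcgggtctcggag
Slc34a2, chr5:53049103-53049402, plus strand: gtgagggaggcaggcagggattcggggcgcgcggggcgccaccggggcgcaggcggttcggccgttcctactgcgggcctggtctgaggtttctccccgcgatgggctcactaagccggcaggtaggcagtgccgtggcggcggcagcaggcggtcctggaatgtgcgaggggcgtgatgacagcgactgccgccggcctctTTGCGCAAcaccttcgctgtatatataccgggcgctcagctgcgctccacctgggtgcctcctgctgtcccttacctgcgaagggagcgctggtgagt
Slc13a2, chr11:78422185-78422484, minus strand: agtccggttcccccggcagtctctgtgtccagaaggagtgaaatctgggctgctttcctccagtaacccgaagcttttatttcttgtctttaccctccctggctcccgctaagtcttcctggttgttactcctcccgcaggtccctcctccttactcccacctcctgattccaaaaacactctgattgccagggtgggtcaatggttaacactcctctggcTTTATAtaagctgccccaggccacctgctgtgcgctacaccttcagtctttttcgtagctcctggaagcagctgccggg

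The Chrna4 and Slc34a2 windows were rich in G and C, at 74.3% and 68.7% with 33 and 30 CpG dinucleotides, against a median of 52.7% over the 32851 promoters in the table. The capitals in Chrna4 mark 3 GC boxes (GGGCGG), which 35.66% of all promoters hold at least once. Those in Slc34a2 mark TTGCGCAA, the palindrome bound by C/EBP factors, 48 bases before the start and held by 0.18% of promoters. Slc13a2 (54.3% G and C) held the TATA box letters TATAAA 29 bases before the start, but on the strand opposite to the gene. On either strand they are found in 13.62% of promoters. The run TATATAAG on the gene's own strand overlaps this match and was not searched for. Slc34a2 had 0 exact matches to TATAAA, but its window holds the similar run tatatata shortly after the palindrome, which the search did not cover. Of the others, Adgrf1 (52.7%) held 1 GC box. Nat8f7 (47.3%) held TATAAA on the opposite strand 96 bases before the start. It also held CCAAT 67 bases before the start, a motif present in 37.41% of promoters. The nuclear receptor half-sites AGGTCA (in 16.26% of all promoters) and AGTTCA (13.99%) matched none of the 5. Neither did the E-box CACGTG (7.15%) or the cyclic AMP response element TGACGTCA (1.79%). The HNF1 half-site GTTAAT (7.1%), the HNF4 motif CAAAGTCCA (0.47%), the STAT motif TTCNNNGAA (8.3%) and the sterol response element TCACNCCAC (1.24%) had no match either. The motifs searched do not overlap one another in these windows.

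Chrna4 encodes the alpha4 subunit, which in the brain pairs with the beta2 subunit in the commonest high-affinity nicotine receptor. On chow it stood at 40.9, 72.0, 21.8, 19.9 and 148 CPM in the 5 WT male libraries and at 47.2, 24.9, 22.3, 31.5 and 6.06 CPM in the 5 KO male libraries. On HFD it stood at 2.52, 0.316, 2.43, 1.41 and 2.17 CPM in WT males and at 3.53, 0.421, 5.44, 5.77 and 0.840 CPM in KO males. In both genotypes every HFD male was below every chow male, and WT male chow replicate 5, the library with the most kidney markers, was the highest of all 40. In females the ranges met: WT females had 18.9, 41.4, 9.09, 6.91 and 44.1 CPM on chow and 7.76, 3.96, 3.53, 52.3 and 34.8 CPM on HFD, and KO females had 47.1, 22.2, 77.0, 20.5 and 27.7 CPM on chow and 8.78, 20.2, 10.1, 16.6 and 21.4 CPM on HFD. Of the WT females on HFD, 3 lay below 8 CPM and 2, replicates 4 and 5, lay in the upper part of the chow range. The HFD minus chow difference on the log2 scale was -5.09 ± 0.79 in WT males, -3.05 ± 0.73 in KO males, -1.33 ± 0.64 in KO females and -0.25 ± 0.63 in WT females (SE from the fit to all 40 libraries). Without WT male chow replicate 5 the WT male value was -4.44 ± 0.77 (SE). In WT females the sign changed to 0.04 without chow replicate 2, 0.10 without chow replicate 5, 0.03 without HFD replicate 2 and 0.03 without HFD replicate 3, and the value was -0.96 without HFD replicate 4.

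**Figure D1:**
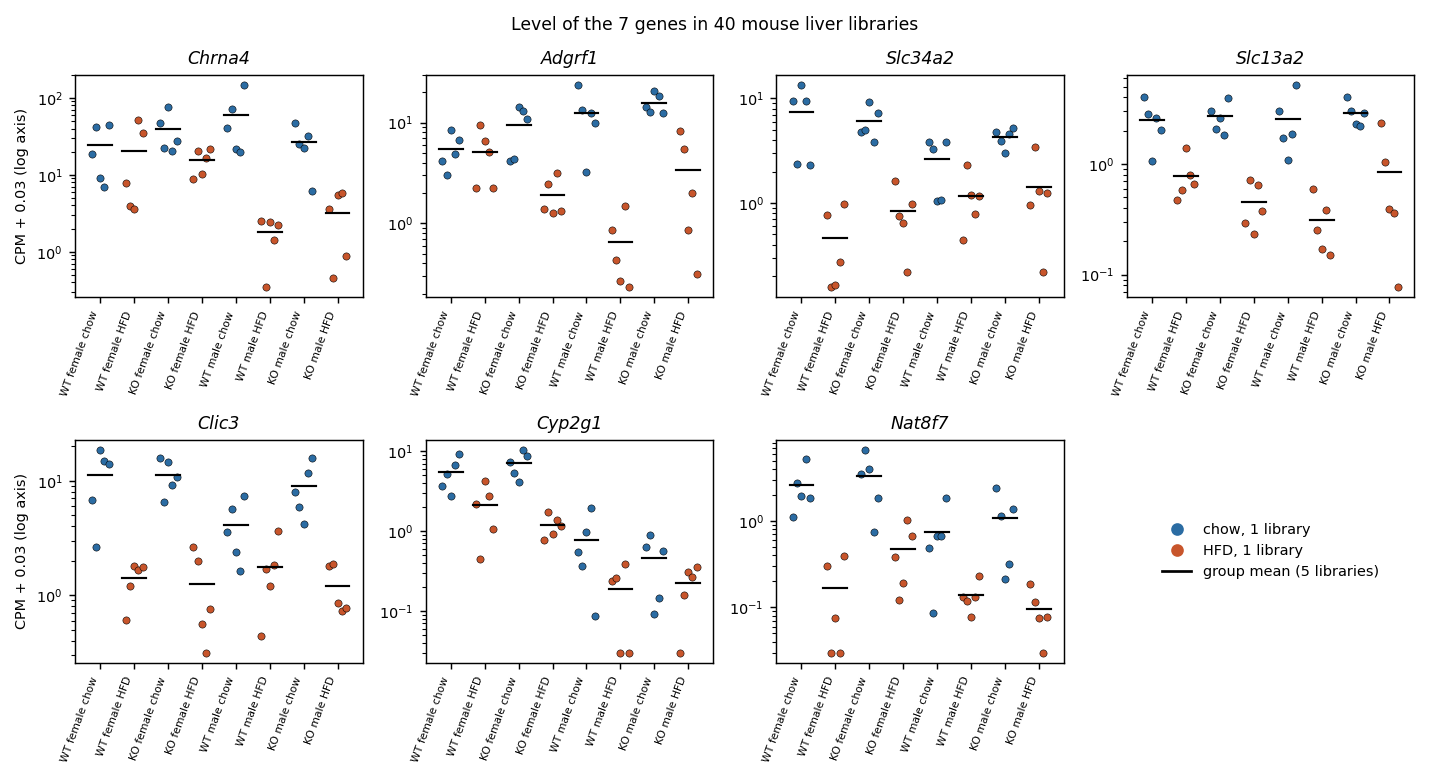
Level of each of the 7 genes in each library, as CPM plus 0.03 on a log axis, in the 8 groups of 5; each point is 1 library, blue for chow and orange for HFD, and the black line is the group mean. Chow points sit above HFD points without overlap in 2 of 4 pairs of groups for Chrna4, Slc34a2, Slc13a2 and Nat8f7, in 3 for Adgrf1 and Clic3, and in 1 for Cyp2g1.

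Adgrf1, also called GPR110, is known in the brain as a receptor for an ethanolamide of docosahexaenoic acid that raises cyclic AMP. Chow males had the highest levels, at 23.8, 13.4, 3.22, 12.5 and 9.99 CPM in WT and 14.4, 12.8, 20.4, 18.4 and 12.4 CPM in KO. On HFD the values were 0.822, 0.406, 0.234, 1.46 and 0.201 CPM in WT males and 8.26, 5.48, 0.823, 1.97 and 0.280 CPM in KO males. All HFD males were below all chow males of their genotype. KO females had 4.16, 4.32, 14.4, 13.1 and 10.9 CPM on chow and 1.37, 2.41, 1.23, 3.14 and 1.29 CPM on HFD, again without overlap. WT females did not show this, with 4.08, 3.01, 8.46, 4.84 and 6.64 CPM on chow and 2.23, 9.38, 6.56, 5.12 and 2.20 CPM on HFD. The log2 difference was -4.36 ± 0.64 in WT males, -2.32 ± 0.55 in KO females, -2.23 ± 0.52 in KO males and -0.08 ± 0.52 in WT females. The last changed sign without chow replicate 3 (0.14), chow replicate 5 (0.01), HFD replicate 1 (0.13) or HFD replicate 5 (0.11). It was -0.42 without HFD replicate 2.

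Slc34a2 encodes the sodium-phosphate cotransporter NaPi-IIb of small intestine and lung alveoli. Its largest differences were in females. WT females had 9.52, 2.32, 13.5, 9.47 and 2.30 CPM on chow and 0.743, 0.126, 0.136, 0.241 and 0.942 CPM on HFD, and KO females had 4.75, 4.96, 9.19, 3.82 and 7.26 CPM on chow and 1.59, 0.728, 0.613, 0.190 and 0.947 CPM on HFD. The diets were apart in both. WT males had 3.79, 3.27, 1.02, 1.05 and 3.77 CPM on chow and 0.411, 2.26, 1.17, 0.756 and 1.13 CPM on HFD, and KO males had 4.70, 3.88, 2.99, 4.55 and 5.18 CPM and 0.935, 3.41, 1.28, 0.188 and 1.21 CPM. In males 2 of 5 WT and 4 of 5 KO libraries on HFD were below the lowest chow library, and KO male HFD replicate 2 lay inside the chow range. The log2 differences were -4.06 ± 0.59 and -2.86 ± 0.54 in WT and KO females and -1.13 ± 0.54 and -1.57 ± 0.52 in WT and KO males. Lung epithelial markers (4 genes) summed to no more than 3.27 CPM in any library, with Scgb1a1 at 0 in all 8 groups. Of 6 intestinal markers, Sis and Alpi were at 0 in all 8 groups, while Fabp2, an intestinal fatty acid-binding protein and the 1 tested member, rose on HFD in all 4 combinations by the edgeR test. Fabp2 made up nearly all of the list sum, which was 31.6 to 64.3 CPM on chow and 78.2 to 109 CPM on HFD in WT females, and 57.7 to 137 and 136 to 181 CPM in WT males. In KO it was 36.04 to 68.2 and 98.8 to 115 CPM in females, and 47.0 to 75.0 and 104 to 194 CPM in males, opposite in sign to Slc34a2; its part in the Slc34a2 values was not tested.

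Slc13a2 encodes NaDC1, the sodium-dicarboxylate cotransporter that takes up citrate and succinate in kidney and intestine. It was low, and lower on HFD in all 4 combinations of sex and genotype. WT females had 3.99, 2.80, 1.04, 2.56 and 1.99 CPM on chow and 0.439, 0.547, 1.36, 0.773 and 0.628 CPM on HFD, and KO females had 3.02, 2.06, 2.59, 1.82 and 3.94 CPM and 0.265, 0.683, 0.204, 0.618 and 0.344 CPM. WT males had 2.99, 1.69, 1.06, 1.82 and 5.19 CPM on chow and 0.565, 0.226, 0.140, 0.353 and 0.121 CPM on HFD, and KO males had 3.97, 2.98, 2.26, 2.19 and 2.88 CPM and 2.34, 1.01, 0.366, 0.328 and 0.0467 CPM. The diets were apart in KO females and WT males, and elsewhere 1 HFD library, WT female replicate 3 or KO male replicate 1, reached the chow range. The log2 differences were -1.74 ± 0.48 and -2.67 ± 0.51 in WT and KO females and -3.18 ± 0.56 and -1.82 ± 0.48 in WT and KO males. The highest library, WT male chow replicate 5, is the one with the most kidney markers, and without it the WT male difference was -2.75 ± 0.56 (SE). Slc13a2 shares 632 exonic bases with the antisense gene Slc13a2os, which had 1 to 19 reads on chow (median 6, n = 20) and 0 to 7 on HFD (median 1, n = 20); the strand setting of the counting is not given in the sources used here, so reads of the pair cannot be told apart.

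Clic3 had 6.71, 2.59, 18.5, 14.7 and 13.9 CPM in WT females on chow and 0.574, 1.18, 1.77, 1.64 and 1.73 CPM on HFD. KO females had 15.6, 6.44, 14.4, 9.13 and 10.8 CPM on chow and 2.60, 1.96, 0.531, 0.285 and 0.731 CPM on HFD, and KO males had 7.94, 5.85, 4.15, 11.6 and 15.7 CPM and 1.77, 1.85, 0.823, 0.703 and 0.747 CPM. In these 3 combinations every HFD library was below every chow library. WT males overlapped, with 3.51, 5.58, 2.37, 1.60 and 7.25 CPM on chow and 0.411, 1.67, 1.17, 1.82 and 3.58 CPM on HFD, and their chow mean, 4.06 ± 2.33 CPM, was the lowest of the 4 chow groups. The log2 differences were -3.06 ± 0.51, -3.20 ± 0.51 and -2.93 ± 0.52 in WT females, KO females and KO males, and -1.18 ± 0.51 in WT males. Without WT male chow replicate 5 the last was -0.86 ± 0.53 (SE).

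Cyp2g1 encodes a cytochrome P450 first known from the olfactory mucosa. WT females had 3.63, 5.12, 2.7, 6.70 and 9.21 CPM on chow and 2.13, 0.421, 4.26, 2.75 and 1.05 CPM on HFD, and KO females had 7.31, 5.31, 4.11, 10.4 and 8.81 CPM and 0.750, 1.68, 0.899, 1.33 and 1.12 CPM. The diets were apart in KO females, and in WT females 3 of 5 HFD libraries were below the lowest chow library. In males the gene was near its detection limit, at 0.517, 0.338, 0.931, 1.92 and 0.0571 CPM on chow and 0.206, 0.226, 0, 0.353 and 0 CPM on HFD in WT, and at 0.596, 0.857, 0.0610, 0.115 and 0.530 CPM and 0, 0.126, 0.274, 0.234 and 0.327 CPM in KO. The male HFD libraries held 0 to 7 reads. The log2 differences were -1.36 ± 0.47 and -2.64 ± 0.49 in WT and KO females and -2.34 ± 0.77 and -1.15 ± 0.81 in WT and KO males, the last being -0.70 without KO male chow replicate 2.

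Nat8f7 belongs to a family whose namesake, NAT8, acetylates cysteine conjugates in the mercapturate route of detoxification in human kidney. Its transcript (1822 bases, GENCODE M21) is 99.4% identical over its length to that of Nat8f3 and 98.3% identical over 1430 bases to that of Nat8f6, so reads of these genes could be split by the counting and the values are uncertain. Chow females had 1.09, 2.75, 1.90, 5.23 and 1.83 CPM in WT and 3.52, 6.63, 3.94, 0.727 and 1.84 CPM in KO, and HFD females had 0.270, 0, 0.0453, 0 and 0.366 CPM and 0.353, 0.0910, 0.164, 0.998 and 0.645 CPM. Males ran from 0.0563 to 2.38 CPM on chow and from 0 to 0.201 CPM on HFD. The diets were apart in WT females and KO males. The log2 differences were -4.15 ± 0.74 and -2.88 ± 0.63 in WT and KO females and -2.63 ± 0.85 and -3.89 ± 0.90 in WT and KO males; the WT male value was -1.99 ± 0.89 (SE) without chow replicate 5.

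Across the 7 genes, the median log2 difference between HFD and chow was -1.74 in WT females, -2.67 in KO females, -2.63 in WT males and -2.23 in KO males, against medians of all 15627 tested genes between -0.01 and 0.00. The diets were apart for 3 of 7 genes in WT females, 5 in KO females, 3 in WT males and 4 in KO males. Of all 15627 tested genes, 2.27%, 3.32%, 3.93% and 2.21% were lower on HFD with the libraries apart in those 4 combinations; since the genes were chosen for this difference, nothing is read from the comparison. The 7 genes did not share 1 pattern. Chrna4 and Adgrf1 had their largest difference in WT males and their smallest in WT females, and Slc34a2 had the reverse. Whether the diet difference itself differed between sexes or genotypes was not tested, since the genes were chosen by it. Of the 20 HFD libraries, the number below the lowest chow library of the same sex and genotype was 18 for Slc13a2, 17 for Adgrf1 and Clic3, 16 for Chrna4 and Slc34a2, 15 for Nat8f7 and 11 for Cyp2g1.

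**Figure D2:**
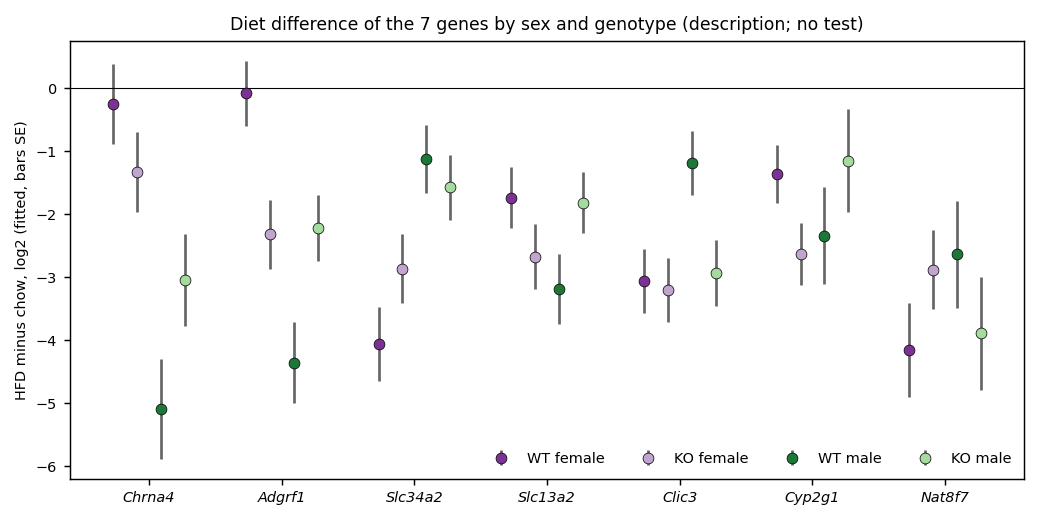
Fitted HFD minus chow difference of each gene on the log2 scale (points) with its SE (bars) in WT females, KO females, WT males and KO males. Values run from -5.09 for Chrna4 in WT males to -0.08 for Adgrf1 in WT females, and the order of the 4 combinations differs from gene to gene.

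Per kb of annotated exon (GENCODE M21), Clic3 and Chrna4 were the most abundant of the 7 on chow, with means over the 4 chow groups of 8.81 and 7.46 CPM per kb. Adgrf1 followed at 2.79 CPM per kb, Cyp2g1 at 1.61, and Slc13a2, Nat8f7 and Slc34a2 lay between 1.01 and 1.10 CPM per kb. On HFD the means ran from 0.104 CPM per kb for Nat8f7 to 2.03 for Chrna4. In the order of the 8 group means of a gene, most neighbouring groups could not be separated. The 1 step that exceeded the larger SD with ranges apart was that of Chrna4 between HFD KO females (15.4 ± 5.75 CPM) and HFD KO males (3.20 ± 2.50 CPM; SD, n = 5). For Nat8f7, 0 of 7 steps exceeded the larger SD, and for the other genes 1 or 2 of 7 did.

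Sex, averaged over genotype and diet, separated 3 of the 7 genes. Cyp2g1 was lower in males by the edgeR quasi-likelihood test, with a log2 difference of -3.28 ± 0.31 (SE) and an adjusted p of 2.17e-11, and every male was below every female within each genotype and diet. Nat8f7 was lower by -1.61 ± 0.43 (adjusted p = 0.0018, edgeR) and Chrna4 by -1.26 ± 0.34 (adjusted p = 0.0025, edgeR). All 3 calls held in each of the 45 alternatives tried. For Nat8f7 the male minus female value was -1.82 ± 0.61 in WT and -1.65 ± 0.59 in KO on chow (SE). On HFD it was -0.30 ± 1.05 in WT and -2.66 ± 0.98 in KO. Nat8f6, whose reads may be shared with Nat8f7 as given above, was higher in males by 4.60 log2 units, and the alternatives did not cover this. Markers of several other liver cell types were lower in males in the same test: 5 of 5 endothelial, 5 of 5 macrophage, 4 of 4 lymphocyte and 3 of 5 stellate cell and fibroblast markers. Of 5 cholangiocyte markers, 0 were lower and 1, Sox9, was higher. Of 6 hepatocyte markers, Alb was lower and Apoa1, Ttr and Apob were higher. The summed level of the endothelial list was 91.8 to 157 CPM in males and 132 to 202 CPM in females, and that of the macrophage list was 106 to 213 CPM and 180 to 390 CPM; their part in the sex differences was not tested. In this comparison 50.2% of tested genes were called and 25.2% were lower in males, so 3 of 7 is not a result about these genes as a set. The Chrna4 difference was not present on both diets. On chow the male minus female value was 1.33 ± 0.63 in WT and -0.56 ± 0.62 in KO (SE), while on HFD it was -3.52 ± 0.78 in WT and -2.28 ± 0.72 in KO with the sexes apart, so the average rests on the HFD groups, which also entered the choice of the genes. The other 4 genes were not called, with 95% intervals of -0.63 to 0.49 for Adgrf1, -0.48 to 0.55 for Slc34a2, -0.61 to 0.42 for Slc13a2 and -0.89 to 0.15 for Clic3. These averages can hide differences of opposite sign between the diets. In WT, male minus female was 1.21 ± 0.51 on chow and -3.07 ± 0.66 on HFD for Adgrf1 (SE). For Slc34a2 in WT it was -1.55 ± 0.49 and 1.38 ± 0.65. In KO the values were 0.74 ± 0.49 and 0.83 ± 0.57 for Adgrf1, and -0.49 ± 0.47 and 0.80 ± 0.58 for Slc34a2. The values within a diet were not tested.

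**Figure D3:**
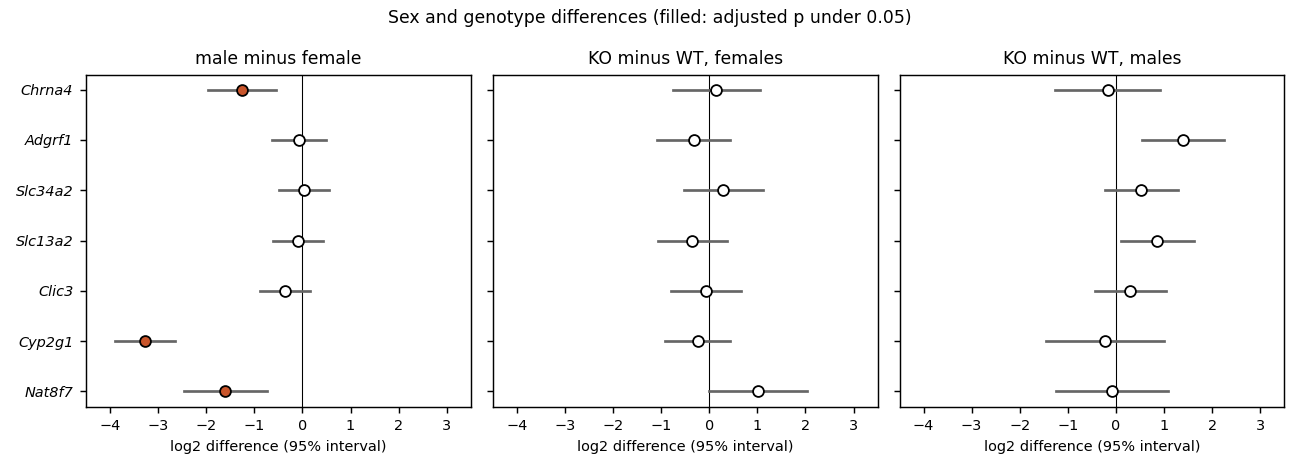
Log2 differences of the 7 genes between males and females (left) and between KO and WT in females (middle) and males (right), each averaged over both diets, with 95% intervals from the edgeR fit; filled points passed an adjusted p of 0.05. Cyp2g1, Nat8f7 and Chrna4 are filled in the left panel and no point is filled in the other panels.

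KO and WT were compared over both sexes, within each sex, and as the difference between the sexes. None of the 7 genes was called in any of the 4 comparisons by edgeR or by DESeq2; at an unadjusted p under 0.05, edgeR had 2, Adgrf1 and Slc13a2, in males and in the difference between the sexes, and 0 in the other comparisons. Over all genes, edgeR called 0 (0%) of the 15627 genes in each. At an unadjusted p under 0.05 it had 1044 (6.68%), 1035 (6.62%), 1260 (8.06%) and 1246 genes (7.97%), and DESeq2 called 1, 0, 6 and 7 genes at an adjusted p under 0.05, in the comparison over both sexes, in females, in males and in the difference between the sexes. Within a sex, the largest value among the 7 was that of Adgrf1 in males, where KO minus WT was 1.39 ± 0.42 (SE; 95% interval 0.54 to 2.24; adjusted p = 0.316, edgeR). Its adjusted p ranged from 0.143 to 0.634 over the 26 alternatives. In females the Adgrf1 value was -0.32 ± 0.38, and the difference between the sexes was 1.71 ± 0.56 (adjusted p = 0.401, edgeR; 0.270 to 0.609 over the 45 alternatives). Slc13a2 in males gave 0.86 ± 0.37 (adjusted p = 0.557, edgeR; 0.355 to 0.860 over the alternatives), and 0.44 without KO male HFD replicate 1. For the other genes the 95% intervals within each sex included 0. Among them, Nat8f7 in females gave 1.02 ± 0.50 (SE; 95% interval -0.0005 to 2.03; adjusted p = 0.740, edgeR; 0.570 to 0.947 over the 26 alternatives). Intervals of this width do not exclude a difference of about 1 log2 unit for any of the 7 genes in males. These values average over both diets, and the HFD groups also entered the choice of the genes. For Adgrf1 in males, WT and KO means were 12.6 and 15.7 CPM on chow and 0.625 and 3.36 CPM on HFD. For Slc13a2 in males they were 2.55 and 2.85 CPM, and 0.281 and 0.818 CPM. For Nat8f7 in females they were 2.56 and 3.33 CPM, and 0.136 and 0.450 CPM. Genotype values within a diet were not tested.

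All 7 genes varied widely among libraries of 1 group. The SD of log2 CPM within groups was 1.23 for Chrna4, the highest of the 7, and 0.79 for Slc13a2, the lowest, and these lie at the 99.8 and 96.6 percentiles of all tested genes. Among the 1000 genes nearest in mean level, the 7 lay between the 96.1 and 99.7 percentiles. The genes were chosen by large differences between group means, which also depend on this spread, so nothing is read from these percentiles.

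The deviations of each library from its group mean were compared between genes, over 40 libraries that share their library totals and scaling. These correlations are descriptions. Chrna4 went most closely with Rassf6, a Ras-association domain protein (r = 0.91, rho = 0.88), Acly, the ATP-citrate lyase that supplies acetyl-CoA for fatty acid synthesis (r = 0.90, rho = 0.90), and Acacb, the acetyl-CoA carboxylase that makes malonyl-CoA at mitochondria (r = 0.89, rho = 0.91), the 3 highest of 12553 genes. The r with Acly was 0.91 in the 20 females, 0.90 in the 20 males and 0.90 without the 2 libraries farthest from the Acly median. The WT females on HFD show it, with Acly at 265, 300, 355, 732 and 705 CPM in replicates 1 to 5, high in the replicates 4 and 5 that were also high in Chrna4. In chow WT males Acly had its highest value, 1448 CPM, in replicate 5, where Chrna4 was 148 CPM. Acly passed the diet test in WT males (-1.75, adjusted p = 0.00015, edgeR), and gave -0.99 in KO males, -0.82 in KO females and -0.27 in WT females, which did not pass.

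**Figure D4:**
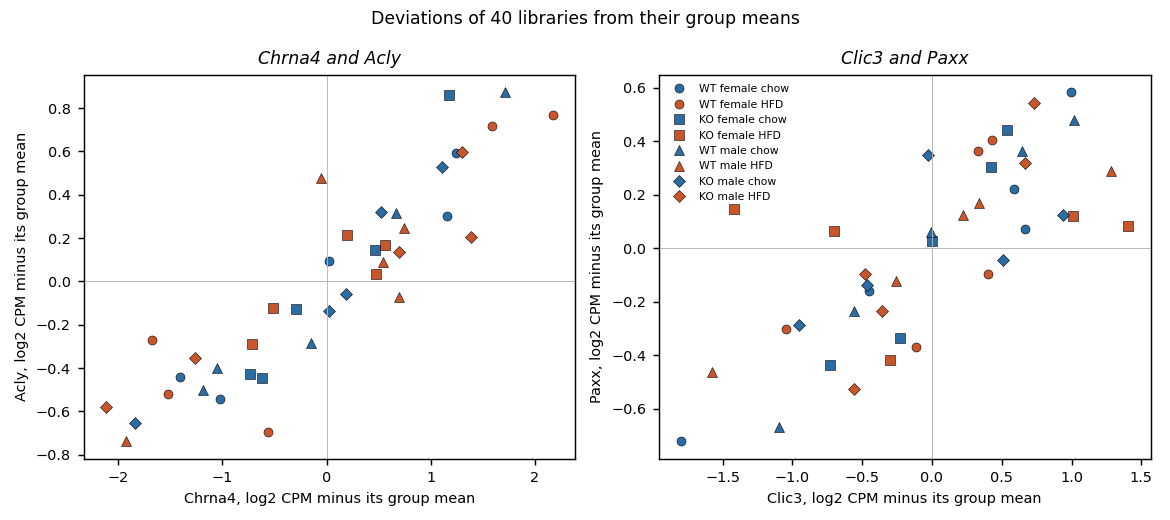
Deviation of log2 CPM from the group mean in each of the 40 libraries for Chrna4 against Acly (left, r = 0.90) and Clic3 against its chromosomal neighbour Paxx (right, r = 0.75); symbols give sex and genotype, and blue and orange give chow and HFD. Points of all 8 groups lie along the same rising band in the left panel and scatter more widely in the right panel.

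The other genes went with other partners. Adgrf1 was closest to Serpina1e, an alpha-1-antitrypsin of mouse liver (r = 0.83, rho = 0.82; 0.71 in females and 0.90 in males), then Mturn (r = 0.77) and Gm36264 (r = 0.72). Slc13a2 was closest to Grk5, a G protein-coupled receptor kinase (r = 0.74, 0.34 in females and 0.84 in males), then Acmsd, an enzyme of tryptophan breakdown (r = 0.70), and Acsl4, an acyl-CoA synthetase (r = 0.70). Slc34a2 was closest to Irgq (r = 0.69), Pdgfc (r = 0.67) and the manganese exporter Slc30a10 (r = 0.66). Cyp2g1 was closest to Masp1 (r = 0.69), a protease of the complement lectin pathway, Cep350 (r = 0.69) and Narf (r = 0.67). Nat8f7 was closest to Gm36041 (r = 0.74), Pcnp (r = 0.73) and Reep3 (r = 0.72), and Clic3 to Paxx (r = 0.75), Ajuba (r = 0.65) and 2810002D19Rik (r = 0.61).

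Among the 21 pairs of the 7 genes, 2 stood out. Adgrf1 and Slc13a2 had r = 0.62 and rho = 0.49, but r was 0.82 in males against 0.12 in females, 0.86 on HFD against 0.04 on chow, and 0.41 without the 2 libraries farthest from the median. In KO males on HFD, replicate 1 was the highest for both and replicate 5 the lowest for both. Slc34a2 and Clic3 had r = 0.52 and rho = 0.49, with 0.43 in females and 0.63 in males. The other 19 pairs lay between -0.30 and 0.22.

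The 2 nearest protein-coding genes on each side of each member were read from the RefSeq order on GRCm38.p6, a comparison chosen after the values had been seen. Clic3 was the 1 member of the 7 with neighbours called lower on HFD in all 4 combinations of sex and genotype. Ptgds, the lipocalin-type prostaglandin D synthase, fell in all 4 combinations, with log2 differences of -2.40 in WT females, -2.62 in KO females, -1.95 in WT males and -2.02 in KO males (adjusted p of at most 7.2e-07, edgeR). Paxx, a factor of DNA end joining, fell as well, with differences of -1.75, -2.19, -1.02 and -1.61 in the same order (adjusted p of at most 0.0022, edgeR). Abca2, a lipid transporter, had smaller falls of -0.45, -0.82, -0.44 and -0.49 (adjusted p of at most 0.0048, edgeR; 0.0601 in WT females when only the groups compared were fitted). In WT females Ptgds went from 10.3 ± 1.62 CPM on chow to 1.94 ± 0.40 CPM on HFD, and Paxx from 40.5 ± 12.8 to 12.1 ± 3.11 CPM (SD, n = 5). Lcn12, a further lipocalin gene, passed in WT females only just (-1.82, adjusted p = 0.0499, edgeR) and kept that call in 3 of 16 alternatives. In these comparisons 1.84%, 2.54%, 5.87% and 2.12% of all tested genes were lower on HFD at an adjusted p under 0.05 in WT females, KO females, WT males and KO males, and 0.96%, 2.4%, 5.72% and 2.32% were higher. Within groups Clic3 went with Paxx (r = 0.75) and Lcn12 (r = 0.54) and less with Abca2 (r = 0.39) and Ptgds (r = 0.09).

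**Figure D5:**
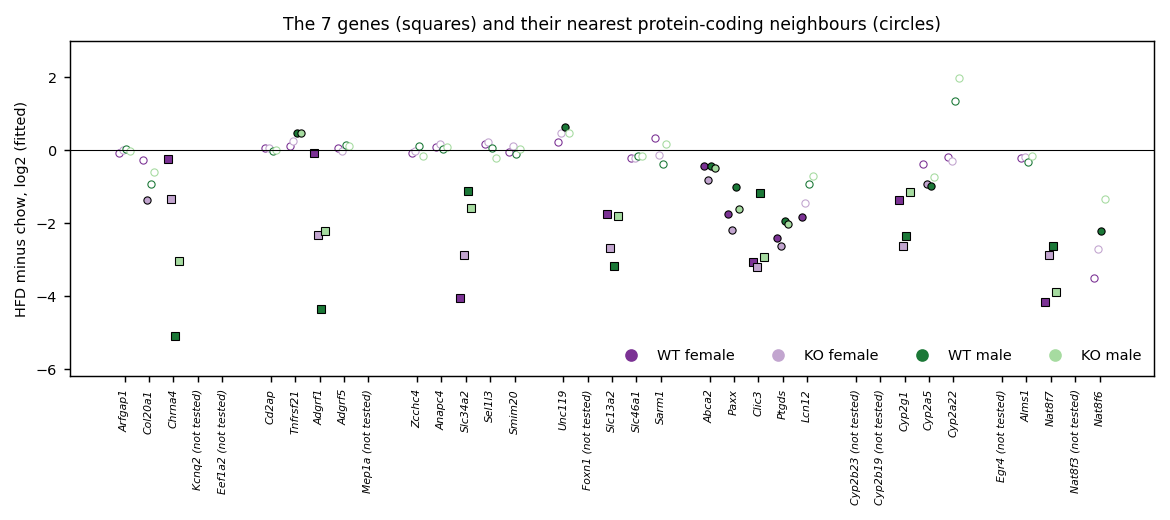
HFD minus chow difference on the log2 scale of the 7 genes (squares, not tested) and of the 2 nearest protein-coding genes on each side (circles, filled where adjusted p was under 0.05), in WT females, KO females, WT males and KO males; genes with too few reads are named as not tested. Abca2, Paxx and Ptgds around Clic3 are below 0 and filled in all 4 combinations, and the neighbours of Slc34a2 are near 0.

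The neighbours of the other genes had fewer calls. All 4 next to Slc34a2 (Zcchc4, Anapc4, Sel1l3 and Smim20) were tested and none was called in any combination. Next to Chrna4, Col20a1, a collagen gene, fell in KO females (-1.36, adjusted p = 0.0056, edgeR), and Arfgap1 was not called. Next to Adgrf1, Tnfrsf21, a death receptor, rose in WT males (0.47, adjusted p = 0.011, edgeR) and KO males (0.47, adjusted p = 0.023, edgeR; held in 11 of 16 alternatives), while the related receptor gene Adgrf5 lay between -0.03 and 0.15 and was not called. Next to Slc13a2, Unc119 rose in WT males (0.64, adjusted p = 0.047, edgeR), a call that held in 7 of 16 alternatives, and the folate transporter gene Slc46a1 was not called. Next to Cyp2g1, Cyp2a5, a coumarin hydroxylase, fell in KO females (-0.94, adjusted p = 0.012, edgeR; lost without HFD replicate 5 at 0.0504) and WT males (-0.98, adjusted p = 0.0047, edgeR). Next to Nat8f7, Nat8f6 fell in WT males (-2.23, adjusted p = 0.00063, edgeR), with the uncertainty of shared reads given above.

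Relatives of the 7 genes by family were counted next, leaving out the 7 themselves. Of the other 15 nicotinic subunit genes, 4 had enough reads, and 1, Chrna2, passed and rose, in KO females (1.12 ± 0.26, SE; adjusted p = 0.0054, edgeR) and WT males (0.86 ± 0.24, SE; adjusted p = 0.015, edgeR; 0.0558 without chow replicate 5), opposite in sign to Chrna4. The partner subunit gene Chrnb2 lay between -0.32 and 0.31 and was not called. Of 13 tested genes around the Adgrf1 ligand and its cyclic AMP route, Fabp5, a fatty acid-binding protein, fell in WT males (-3.40 ± 0.59, SE; adjusted p = 0.00013, edgeR) and KO males (-2.86 ± 0.57, SE; adjusted p = 0.0016, edgeR). Adcy6, an adenylate cyclase, was called higher in KO females (0.59), WT males (0.58) and KO males (0.66), held in 12, 12 and 15 of 16 alternatives. Of 7 tested phosphate carriers, at most 2 were called in any combination, with the largest value -0.40 for Slc17a3 in WT females, held in 14 of 16 alternatives. The other tested Slc13 carriers (3, among them the citrate carrier gene Slc13a5, between -0.18 and 0.23) and the other tested Clic genes (Clic1, Clic4 and Clic5) had no call in any combination. Of 8 tested genes of phosphate regulation, 1, 1, 2 and 1 were called lower in WT females, KO females, WT males and KO males. In the same order 0, 0, 1 and 1 were called higher, and the list median was -0.03, -0.07, 0.11 and 0.03. Cyp2r1 of this list, the vitamin D 25-hydroxylase, fell in all 4 combinations (-0.46, -0.50, -0.70 and -0.48) in all alternatives. Fgfr1 fell in WT males (-1.33), and Enpp1 rose in WT males (0.35) and KO males (0.38), also in all alternatives.

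Genes of citrate and succinate handling, the substrates of Slc13a2, had 1, 1, 6 and 1 of 17 called lower and 0, 0, 1 and 1 called higher in WT females, KO females, WT males and KO males. Those lower in WT males were led by Acly, the mitochondrial citrate carrier Slc25a1 (-0.65) and the succinate receptor Sucnr1 (-0.83). The median of the list was -0.06, -0.03, -0.06 and -0.08. Over all tested genes the shares called lower in the same order were 1.84%, 2.54%, 5.87% and 2.12%. The shares called higher were 0.96%, 2.4%, 5.72% and 2.32%. These shares also stand beside the counts of the other lists.

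The Nat8 family was counted next. Of 6 tested Nat8 relatives, 1, 1, 4 and 3 were called lower in the 4 combinations, with list medians of -0.55, -0.82, -1.20 and -0.93. Nat8f1 fell in all 4 (-0.54, -0.74, -0.83 and -0.53), and Nat8f5 fell in WT males (-2.06, adjusted p = 1.17e-07, edgeR) and KO males (-1.78), as did Nat8 (-1.58 and -1.47). Nat8f5, Nat8 and Nat8f6 were higher in males (7.42, 5.35 and 4.60 log2 units), whereas Nat8f7 was lower in males. Of the 10 tested mercapturate genes outside the family, Ggt6, a gamma-glutamyltransferase family gene, fell in KO females (-0.69), WT males (-0.67) and KO males (-0.58, held in 13 of 16 alternatives), and the list median stayed between -0.13 and 0.03.

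Of 9 tested genes of the Cyp2 cluster, 3, 4, 4 and 2 were called lower and 0, 0, 2 and 2 higher. Cyp2b10, the classical target of the nuclear receptor CAR, fell in all 4, with differences of -4.24 ± 0.36, -4.71 ± 0.37, -4.03 ± 0.39 and -4.75 ± 0.42 (SE), and so did Cyp2f2 (-0.80, -0.66, -0.77 and -0.72). Cyp2b9 and Cyp2b13, lower in males by -5.43 and -10.18 log2 units over both diets, rose on HFD in WT and KO males. The difference of Cyp2b9 was 4.75 in WT males and 5.28 in KO males (6.79 without KO male chow replicate 2). Cyp2b13 had 0 to 6 reads per chow library and 26 to 337 per HFD library in WT males, and 0 to 1 and 1 to 58 reads in KO males. Its fitted difference in WT males, 6.68, was 10.15 without chow replicate 3, the 1 chow library with reads, so its size is not well determined. In a list of 22 genes of CAR and PXR, the receptors that control drug-metabolizing enzymes, 11, 10, 10 and 10 were called lower and 0, 0, 2 and 0 higher, with medians of -0.55, -0.63, -0.39 and -0.48. Cyp2c29 (-1.35, -1.38, -1.63 and -1.72), Cyp2c55 (-1.73, -1.78, -2.61 and -2.80), Cyp2c54 (-1.98, -2.43, -1.58 and -1.57) and the carboxylesterase gene Ces2a (-0.99, -1.51, -1.20 and -0.97) fell in all 4 combinations in all alternatives. Nr1i3, which encodes CAR, rose in WT males (0.82, adjusted p = 0.010, edgeR). These lists were picked with results of the same libraries known and are not independent evidence of their direction. Cholangiocyte markers (7 genes, 5 tested) summed to 29.4 to 65.5 CPM over all libraries and none was called on HFD, while 4 of 5 stellate cell and fibroblast markers rose in WT males. Of 5 endothelial markers, Lyve1 rose in WT females, WT males and KO males and Clec4g in WT males. Of 5 macrophage markers, Cd5l rose in WT females and WT males and Adgre1 in WT females. Of 6 hepatocyte markers, Cps1 fell and Apob rose in WT males, and none of 4 lymphocyte markers was called. The part of these markers in the values above was not tested.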

How the data were processed

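Liver poly(A) RNA was sequenced in 40 libraries, 8 groups of 5. For each library the authors deposited a table of unnormalized counts by Ensembl gene identifier. The submitters' processing notes name STAR 2.7.10b, featureCounts 2.0.6 and the build mm39. Not given in the sources used here were the annotation release, the strand setting and how reads matching several genes were treated. Symbols were matched for 51880 of 57186 identifiers, which hold 99.7% of the counts. The promoter window of 1 member is not reported here. The 7 genes and all gene lists were chosen with earlier results of these data known.

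Counts were filtered with filterByExpr by group, scaled with TMM and fitted with edgeR 4.0.16 (quasi-likelihood F-test) in R 4.3.3 with 1 mean per group over all 40 libraries; p-values were adjusted by Benjamini-Hochberg over the 15627 genes tested in each comparison and called at 0.05. CPM are counts per 1000000 counts of the TMM-scaled library total. For the 7 genes the diet differences carry no test. The sex and genotype comparisons weight both diets equally. The fit was also run on counts simulated from its own model, which cannot show how it handles the real libraries. Genes most like a member were the 3 highest by Pearson's r of log2 CPM (prior count 2) as deviations from group means, among 12553 tested genes with a symbol and a mean of at least 1 CPM; genes named from a list were those called, by smallest adjusted p, or the members' direct partners. The neighbours, the correlations within sexes, and some list genes were chosen after their values were seen. Replicates of 1 group differed by more than counting noise in all 80 pairs checked (chi-square per degree of freedom at least 8.63). Nothing in the labels says more of how replicates relate than that they are separate samples, so the p-values reflect only how far these samples spread, which may be technical. Alternatives were RLE size factors, other low-count filters, DESeq2 1.42.0, leaving out each library, a replicate block, and a fit restricted to the groups of a comparison. Library totals were 15973400 to 28159400 counts, so 1 CPM stood for about 16 to 28 reads; counts near 0, as for Cyp2g1 and Nat8f7 in males, are imprecise.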

Additional observations from a re-analysis of the deposited data

How the results depend on the processing

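The 3 sex calls among the 7 genes (Chrna4, Cyp2g1 and Nat8f7) were kept in all 45 alternatives, and the absence of genotype calls among the 7 in all of theirs. The alternatives do not address that the Chrna4 call rests on the HFD groups, which also entered the choice of the genes. Mean CPM on unscaled library totals moved by less than 1 SD in 56 of 56 group means. Over all genes, fitting only the groups compared lowered the diet calls from 438 to 226 in WT females and from 1811 to 1079 in WT males. DESeq2 raised the genotype calls from 0 to 1 over both sexes, 6 in males and 7 in the difference between the sexes, and the last was 1 without a low-count filter; the cause was not tested. Leaving out 1 library gave 234 (without HFD replicate 2) to 534 calls in WT females, 516 to 774 in KO females, 1242 to 2313 in WT males, 441 (without HFD replicate 5) to 854 in KO males, 7669 to 7911 for sex, 0 to 0 for KO minus WT and in females, 0 to 1 in males and 0 to 1 for the difference between the sexes.

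Values near 0 changed sign. The KO minus WT difference between sexes of Cyp2g1 went from 0.0078 to -0.0080 without a filter, and KO minus WT of Chrna4 from -0.02 to 0.0924 with the replicate block. When single libraries were left out, the ranges were -0.96 to 0.10 (Chrna4) and -0.42 to 0.14 (Adgrf1) for diet in WT females; -0.13 to 0.14 (Slc34a2) and -0.23 to 0.016 (Adgrf1) for sex; -0.11 to 0.17 (Chrna4) and -0.0049 to 0.23 (Clic3) for KO minus WT; -0.053 to 0.51 (Chrna4) and -0.31 to 0.056 (Clic3) for it in females. In males they were -0.34 to 0.15 (Chrna4), -0.46 to 0.12 (Cyp2g1) and -0.33 to 0.24 (Nat8f7). For the difference between the sexes they were -0.68 to 0.0022 (Chrna4), -0.22 to 0.35 (Cyp2g1) and -0.092 to 0.43 (Slc34a2).

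Replicate numbers did not pair the libraries: deviations of same-numbered libraries had a mean r of 0.0054 and 9 of 40 libraries correlated best with their own number. With the replicate block, diet calls were 419, 750, 1798 and 678 in WT females, KO females, WT males and KO males, sex calls were 7834, genotype calls were 0, and no call among the 7 genes changed. Depth limits Cyp2g1 and Nat8f7 most, with 0 to 7 and 0 to 5 reads in male HFD libraries.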

Other observations

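The 56 sets of 5 library values (7 genes in 8 groups) held 0 with a highest or lowest library set apart beyond Dixon's 95% value of 0.71. Among the genes inverse to a member within groups, Entpd5 went against Adgrf1 (r = -0.79, n = 40), and Slc7a2, a cationic amino acid transporter, went against Slc34a2 (r = -0.71). Unc119, next to Slc13a2 on the chromosome, went against it (r = -0.63, rho = -0.74). The antisense partner Slc13a2os was lower on HFD in the same sense as Slc13a2, at a median of 1 read against 6.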
